A study of Mus musculus with 6 samples.

Results

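The genes described here belong to the Toll-like receptor system and were read from the deposited expression table of mouse hearts: the receptors Tlr2, Tlr3, Tlr4, Tlr5, Tlr7, Tlr9 and Tlr13, the co-receptors Cd14 and Ly96, and the adaptor Myd88. They were chosen by name, each matched 1 row, and they are 10 of the 30914 genes of the table. RNA sequencing compared 3 hearts of the Ang II group with 3 hearts of the Ang II + Tec group, to ask what tectochrysin (Tec), a plant flavonoid, does to gene expression in the hypertrophic heart. All mice were male C57BL/6J animals of the WT genotype, 8 weeks old, and all received Ang II (angiotensin II), a hormone that raises blood pressure, at 1 μg/kg/min for 4 weeks from an osmotic pump. The Ang II + Tec group also received Tec at 5 mg/kg in the last 2 weeks. Hearts without Ang II were not analysed here, so the effect of Ang II itself has no measurement below. Each value is in FPKM, fragments scaled to the length of the transcript and to the mapped fragments of the library, which allows levels to be compared between genes of different length but does not keep the number of reads, so the depth behind a value is unknown and the spread between hearts is the error given. Values are listed in the order of the replicate numbers, and the Ang II + Tec hearts are also called treated hearts.

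Toll-like receptors are germline-encoded sensors of microbial products and of molecules released by damaged tissue. Tlr2, Tlr4 and Tlr5 sit at the cell surface and bind lipoproteins, lipopolysaccharide and flagellin, whereas Tlr3, Tlr7, Tlr9 and Tlr13 sense nucleic acids from within endosomes. CD14 hands lipopolysaccharide to TLR4 and MD-2, the product of Ly96. After ligand binding, the receptors other than TLR3 recruit MYD88, which assembles a complex of IRAK kinases and leads to NFκB activation, while TLR3 uses the adaptor TRIF. In the heart these receptors are carried by resident and recruited macrophages and also, at lower levels, by cardiomyocytes, endothelial cells and fibroblasts.

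The sequences around the start sites of 4 members are shown because these members had lower mean levels in the Ang II + Tec group and differ in the regulatory letters that their start regions hold. RefSeq (GRCm38.p6) gave the 250 bases before and the 50 bases after the start of 6 of the 10 genes. Tlr4, Tlr7, Cd14 and Ly96 had no entry. Capitals mark matches, on either strand, to the κB consensus, to GAGGAA (a core of sites of the myeloid factor PU.1), to TGANTCA (AP-1), to GAAA, any 2 bases and GAAA again (the core of the interferon-stimulated response element) and to TATAAA, and adjoining or overlapping matches run together.
Tlr2, chr3:83841559-83841858, minus strand: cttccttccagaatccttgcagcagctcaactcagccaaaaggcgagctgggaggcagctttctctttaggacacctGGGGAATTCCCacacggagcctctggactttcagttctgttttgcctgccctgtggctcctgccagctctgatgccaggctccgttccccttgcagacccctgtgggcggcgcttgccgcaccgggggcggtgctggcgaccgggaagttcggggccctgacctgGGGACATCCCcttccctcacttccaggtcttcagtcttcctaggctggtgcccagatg
Tlr3, chr8:45410331-45410630, minus strand: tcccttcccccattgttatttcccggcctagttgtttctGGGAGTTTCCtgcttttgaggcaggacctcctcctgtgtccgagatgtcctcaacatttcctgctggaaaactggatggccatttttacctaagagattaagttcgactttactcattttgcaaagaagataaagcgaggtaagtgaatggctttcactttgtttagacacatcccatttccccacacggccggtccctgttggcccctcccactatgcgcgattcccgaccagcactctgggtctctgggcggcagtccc
Tlr13, chrX:106143025-106143324, plus strand: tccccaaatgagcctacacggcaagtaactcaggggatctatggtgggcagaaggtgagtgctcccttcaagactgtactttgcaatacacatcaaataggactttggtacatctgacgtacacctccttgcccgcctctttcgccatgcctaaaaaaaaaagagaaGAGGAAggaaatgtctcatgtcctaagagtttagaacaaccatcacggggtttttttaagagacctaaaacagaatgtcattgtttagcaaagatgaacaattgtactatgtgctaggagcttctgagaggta
Myd88, chr9:119339969-119340268, minus strand: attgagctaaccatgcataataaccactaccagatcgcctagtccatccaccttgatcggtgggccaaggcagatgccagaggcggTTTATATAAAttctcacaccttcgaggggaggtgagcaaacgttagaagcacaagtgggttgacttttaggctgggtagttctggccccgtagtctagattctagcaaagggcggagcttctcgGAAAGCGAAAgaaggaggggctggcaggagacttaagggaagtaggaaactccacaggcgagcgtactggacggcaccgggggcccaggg

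The Tlr2 window held the κB consensus from -173 to -163, where 2 matches overlap, and across the start itself, and the Tlr3 window held it at 1 place, from -211 to -202. Of 32851 windows of the same length in the table, 8.46% held it. The Myd88 window held the interferon-stimulated response element from -40 to -31, which occurred in 3.44% of all windows, and TATAAA on both strands between -164 and -155 (13.6% of all windows). The Tlr13 window held GAGGAA from -83 to -78, as did 28.3% of all windows, and the Tlr9 window, not printed, held GAGGAA at 2 places and TGANTCA at 1 (7.81% of all windows). In the Tlr5 window none of these letters matched. These are matches of letters only, and binding was not measured.

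The sum of FPKM ranged from 516699 to 592733 in the Ang II group and from 581800 to 629989 in the Ang II + Tec group, with 40.1% to 48.9% and 49.6% to 52.5% of it in transcripts of the mitochondrial genome. The mitochondrial share was thus higher in each treated heart than in each Ang II heart. Myl7, the atrial myosin light chain, measured 419, 332 and 0 FPKM in the Ang II hearts against 0, 1040 and 1.58 FPKM in the treated hearts, so atrial transcripts differed between hearts of the same group in both groups. Cardiomyocyte markers were abundant throughout, with a summed level of 7219 to 8654 FPKM (Ang II) and 7231 to 7949 FPKM (Ang II + Tec). Ang II replicate 3, which had no Myl7, was the Ang II library closest to the treated hearts for most members.

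All 10 genes were expressed at low to moderate levels. In the Ang II group the order of the mean levels was Cd14, Myd88, Tlr2, Tlr4, Tlr3, Tlr7, Tlr13, Ly96, Tlr9 and Tlr5, from 5.21 to 0.177 FPKM. The ranges of neighbours in this order overlapped, except that each Ly96 value lay above each Tlr9 value. In the Ang II + Tec group the order was Myd88, Cd14, Tlr4, Tlr3, Tlr2, Tlr7, Ly96, Tlr13, Tlr5 and Tlr9, from 3.36 to 0.0733 FPKM. Here the ranges of Cd14 and Tlr4, of Tlr13 and Tlr5 and of Tlr5 and Tlr9 did not overlap, and those of the other neighbours did. The values of Tlr2 and Tlr4 overlapped in the Ang II group, whereas each treated heart had a Tlr2 value below every treated Tlr4 value.

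**Figure D1:**
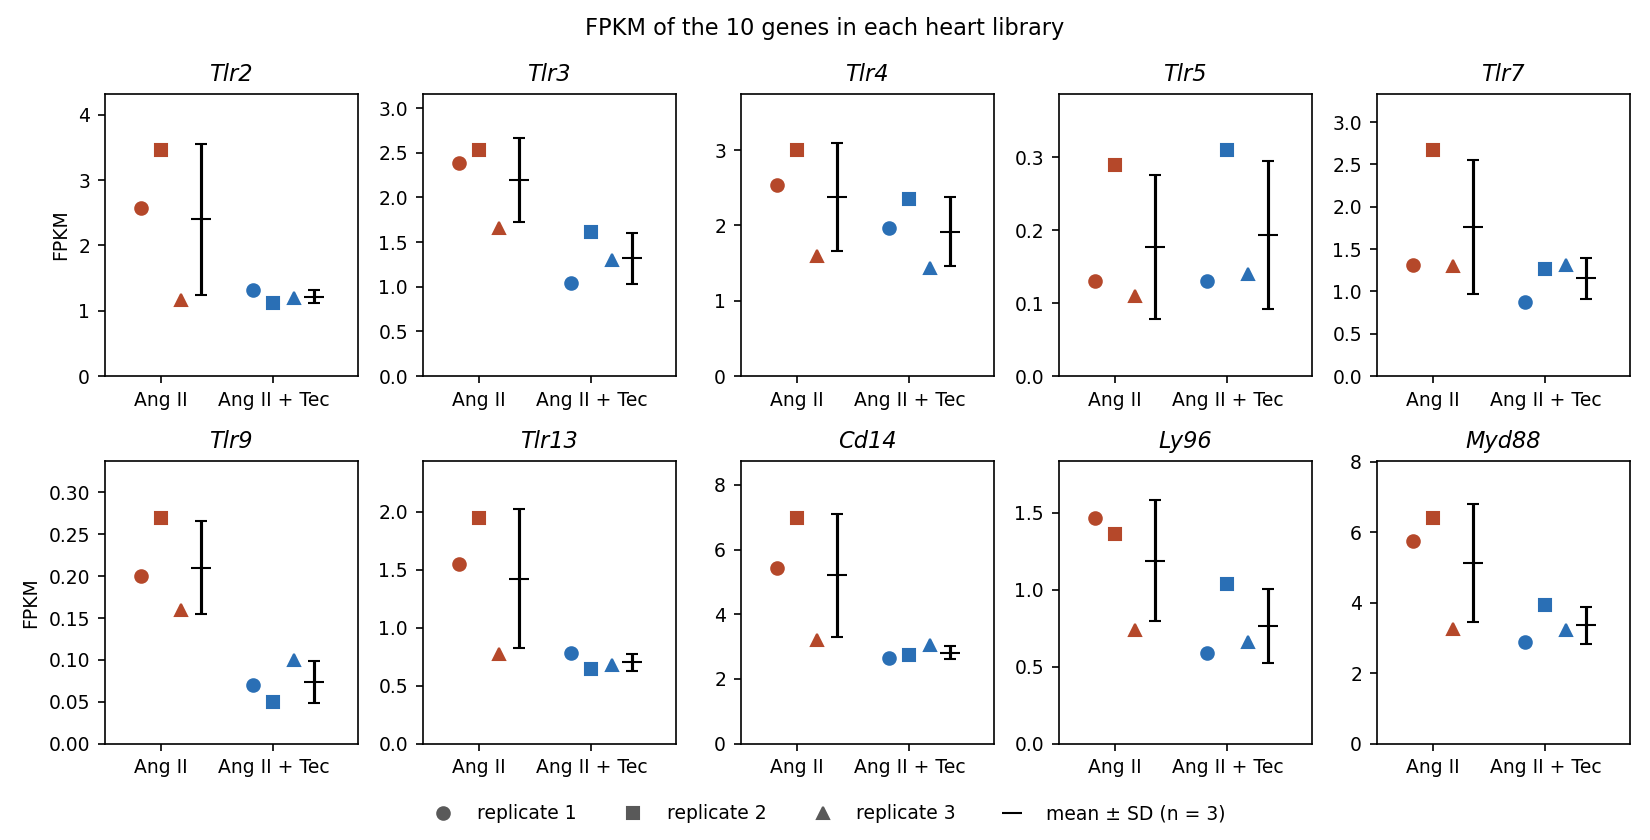
FPKM (vertical axes, each from 0) of the 10 genes in the 3 Ang II libraries (red) and the 3 Ang II + Tec libraries (blue), with symbols for the replicate number and black bars for the mean ± SD. Ang II replicates 1 and 2 are the highest pair in 9 of the 10 panels, and Ang II replicate 3 lies among the treated libraries in 6 of them.

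Genes with at least 0.5 FPKM in at least 3 libraries were tested, 13089 in all. Of the members, 8 were tested and each of these was above that level in all 6 libraries, so none passed through 1 group alone. Tlr5 and Tlr9 were below it. Differences were fitted with limma on the scale of log2(FPKM + 1), which understates the fold change of genes at these levels, and p-values were adjusted over all 13089 genes by the Benjamini-Hochberg method. To be called, a gene needed an adjusted p-value under 0.05 together with a log2 fold change of 1 or more in either direction.

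None of the 8 tested members was called between the groups, against 0.160% of all tested genes, and none passed the adjusted p-value alone, against 0.183%. All 8 had a lower mean with Tec, with a median log2 fold change of -0.46, but 80.0% of all tested genes were lower as well, with a median of -0.17. Rescaling the libraries by the median of their ratios moved the median of all genes to 0.0020 and that of the members to -0.29, with all 8 still lower. Rescaling to the genes outside the mitochondrial genome gave -0.14 and -0.44. An unadjusted p-value under 0.05 was reached by 3 of the 8 (Cd14, Tlr3 and Tlr13), against 16.5% of all tested genes that were lower and 2.09% that were higher at that limit. The groups did not overlap for 2 of the 8, both lower (Cd14 and Tlr3), against 18.9% of all tested genes that were lower without overlap and 2.90% that were higher.

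**Figure D2:**
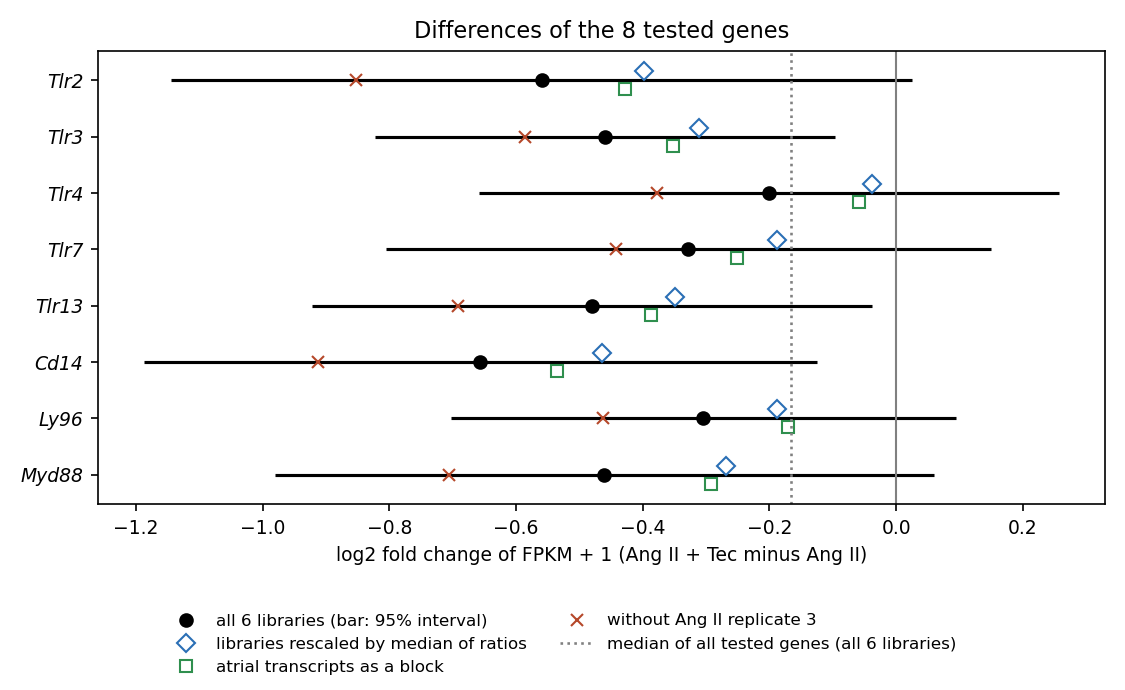
Log2 fold change of FPKM + 1 (horizontal axis, Ang II + Tec minus Ang II) of the 8 tested genes, with 95% limma intervals as bars. Open symbols and crosses give the same difference after rescaling, with atrial transcripts as a block, and without Ang II replicate 3. The intervals of Cd14, Tlr3 and Tlr13 lie below 0, and those of the other 5 genes include it.

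Among the surface receptors, Tlr2 (ENSMUSG00000027995, GRCm38 chromosome 3 from 83836272 to 83841767, minus strand) measured 2.58, 3.46 and 1.17 FPKM in the Ang II hearts and 1.32, 1.12 and 1.20 FPKM in the treated hearts. Ang II replicates 1 and 2 were thus more than 1 FPKM above every treated heart, while the remaining one lay within the treated range. The means were 2.40 ± 1.16 FPKM (SD, n = 3) and 1.21 ± 0.101 FPKM (SD, n = 3), so the treated mean was 50.5% of the Ang II mean. The log2 fold change was -0.56 (standard error 0.25, limma adjusted p-value 0.279). TLR2 recognises bacterial lipoproteins as a heterodimer with TLR1 or TLR6.

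Tlr4 (ENSMUSG00000039005, chromosome 4 from 66827584 to 66930284, plus strand), the lipopolysaccharide receptor, measured 2.53, 3.00 and 1.60 FPKM in the Ang II hearts and 1.96, 2.35 and 1.44 FPKM in the treated hearts. The groups overlapped, and the lowest value of each came from its replicate 3. Its log2 fold change of -0.20 (standard error 0.20, 95% interval from -0.66 to 0.26, limma adjusted p-value 0.545) was the smallest of the 8 and close to the median of all tested genes. With median-of-ratios scaling it was -0.038. Tlr5, the flagellin receptor, measured 0.13, 0.29 and 0.11 FPKM in the Ang II hearts and 0.13, 0.31 and 0.14 FPKM in the treated hearts. These are low values in which the second replicate of each group stood above the others, and Tlr5 was the single member whose mean was not lower with Tec.

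Because Tlr2 and Tlr4 are measured in the same library, their ratio does not depend on the scaling. It was 1.02, 1.15 and 0.731 in the Ang II hearts and 0.674, 0.477 and 0.833 in the treated hearts. Tlr2 exceeded Tlr4 in 2 hearts, both of the Ang II group, and the ranges overlapped through Ang II replicate 3. The share of Tlr4 in the summed FPKM of the 7 receptors was 23.7%, 21.2% and 23.6% in the Ang II hearts and 31.7%, 32.0% and 23.3% in the treated hearts. The share of Tlr2 was 24.1%, 24.4% and 17.3% against 21.4%, 15.2% and 19.4%. Both shares overlapped between the groups, and these ratios were chosen after the values had been seen and were not tested.

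**Figure D3:**
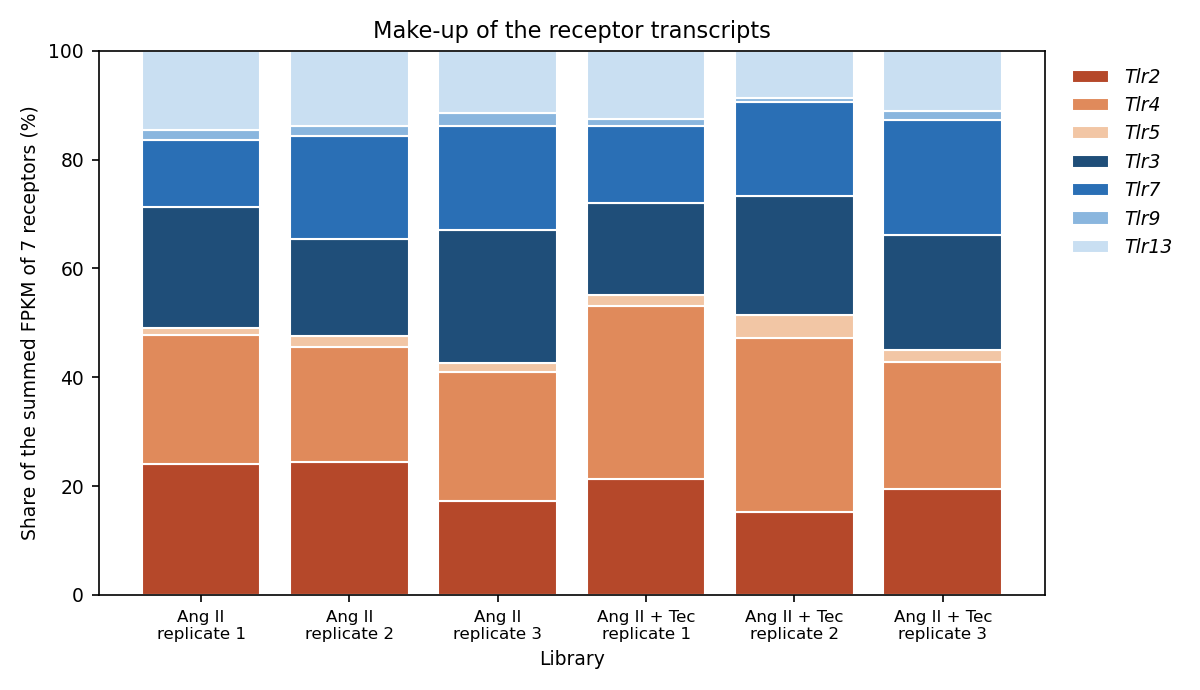
Share of each receptor (vertical axis, percent) in the summed FPKM of the 7 receptors for each library, with surface receptors in red and endosomal receptors in blue. Tlr4 makes up 31.7% and 32.0% in Ang II + Tec replicates 1 and 2 and 21.2% to 23.7% in the other 4 libraries.

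Among the endosomal receptors, Tlr3 (ENSMUSG00000031639, chromosome 8 from 45395665 to 45411080, minus strand), which binds double-stranded RNA, measured 2.39, 2.53 and 1.66 FPKM in the Ang II hearts and 1.04, 1.61 and 1.30 FPKM in the treated hearts. The groups did not overlap, but the gap between the lowest Ang II heart and the highest treated heart was small beside the spread within each group. The means were 2.19 ± 0.467 FPKM (SD, n = 3) and 1.32 ± 0.285 FPKM (SD, n = 3). The log2 fold change was -0.46 (standard error 0.16), with an unadjusted p-value of 0.0201 and a limma adjusted p-value of 0.229. In GENCODE M21, 381 of the 5207 exonic bases of Tlr3 are shared with the antisense gene Gm45542, and the strand setting of the counting is not given in the sources used here, so reads of the pair cannot be told apart.

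Tlr13 (ENSMUSG00000033777, chromosome X from 106143204 to 106160493, plus strand), a receptor for bacterial ribosomal RNA that humans lack, measured 1.55, 1.95 and 0.77 FPKM in the Ang II hearts. In the treated hearts it was at 0.78, 0.64 and 0.68 FPKM. As for Tlr2, a pair of Ang II hearts lay far above the treated hearts and the other lay among them. The log2 fold change was -0.48 (standard error 0.19), with an unadjusted p-value of 0.0368 and a limma adjusted p-value of 0.250. The treated mean was 49.2% of the Ang II mean, the lowest percentage of the 8 tested members.

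Tlr7 (ENSMUSG00000044583, chromosome X from 167304929 to 167330558, minus strand), which senses single-stranded RNA, measured 1.31, 2.67 and 1.30 FPKM in the Ang II hearts and 0.88, 1.27 and 1.31 FPKM in the treated hearts. Only Ang II replicate 2 stood apart, and Ang II replicate 1 equalled the highest treated heart. The log2 fold change was -0.33 (standard error 0.20, limma adjusted p-value 0.380). Without Ang II replicate 2 it was -0.10. Tlr9, which recognises unmethylated CpG DNA and has been studied in the heart as a sensor of mitochondrial DNA, measured 0.20, 0.27 and 0.16 FPKM in the Ang II hearts and 0.07, 0.05 and 0.10 FPKM in the treated hearts. Each Ang II value was above each treated value, at levels below the limit for testing, where the table's 2 decimals are a sizeable part of the value. In the fit with no filter on low FPKM the log2 fold change of Tlr9 was -0.17. The lowest limma adjusted p-value of any member in that fit was 0.334.

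Of the co-receptors, Cd14 (ENSMUSG00000051439, chromosome 18 from 36725067 to 36726798, minus strand) measured 5.42, 6.99 and 3.21 FPKM in the Ang II hearts and 2.66, 2.73 and 3.04 FPKM in the treated hearts. The treated hearts were tightly grouped, and the lowest Ang II heart was just above the highest of them. The means were 5.21 ± 1.90 FPKM (SD, n = 3) and 2.81 ± 0.202 FPKM (SD, n = 3). Its log2 fold change was -0.66 (standard error 0.23, 95% interval from -1.19 to -0.12), with an unadjusted p-value of 0.0221 and a limma adjusted p-value of 0.230. On the scale of log2(FPKM + 1) it was the largest decrease among the 8 members. With 0.1 added to FPKM in place of 1 it was -0.80, smaller in size than those of Tlr13 (-0.84) and Tlr2 (-0.81).

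Ly96 (ENSMUSG00000025779, chromosome 1 from 16688051 to 16709611, plus strand) measured 1.47, 1.36 and 0.74 FPKM in the Ang II hearts and 0.59, 1.04 and 0.66 FPKM in the treated hearts, so that the second treated heart lay above the third Ang II heart. On the log2 scale the difference was -0.30 (standard error 0.17, limma adjusted p-value 0.340). The ratio of Cd14 to Tlr4 was 2.14, 2.33 and 2.01 in the Ang II hearts and 1.36, 1.16 and 2.11 in the treated hearts. Cd14 was thus about as abundant relative to its receptor in Ang II + Tec replicate 3 as in the Ang II hearts, and lower in treated hearts 1 and 2. The ratio of Ly96 to Tlr4 ranged from 0.453 to 0.581 (Ang II) and from 0.301 to 0.458 (Ang II + Tec).

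The adaptor Myd88 (ENSMUSG00000032508, chromosome 9 from 119335934 to 119340041 in the deposited table, minus strand) measured 5.74, 6.42 and 3.25 FPKM in the Ang II hearts and 2.90, 3.94 and 3.23 FPKM in the treated hearts. Ang II replicates 1 and 2 were the highest, and Ang II replicate 3 was nearly equal to Ang II + Tec replicate 3. The means were 5.14 ± 1.67 FPKM (SD, n = 3) and 3.36 ± 0.531 FPKM (SD, n = 3), a log2 difference of -0.46 (standard error 0.22, 95% interval from -0.98 to 0.059, limma adjusted p-value 0.300). Within the interval of the table, 223 of 2509 exonic bases of Myd88 are shared with Acaa1a, a peroxisomal thiolase gene on the other strand, which measured 12.7, 10.9 and 12.1 FPKM in the Ang II hearts and 10.2, 12.5 and 10.5 FPKM in the treated hearts.

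The members followed a similar order over the libraries. Ang II replicates 1 and 2 were the 2 highest libraries for all 8 tested members (for Tlr7 with a tie), as they were for 50.6% of all tested genes. The mean over the 8 members of log2(FPKM + 1), centred on the mean of each gene, was 0.30, 0.53 and -0.18 in the Ang II hearts and -0.28, -0.12 and -0.24 in the treated hearts. Ang II replicate 3 therefore lay between Ang II + Tec replicates 2 and 3. The distance of a member from this mean pattern (Euclidean, over the 6 libraries) was smallest for Myd88 (0.188) and largest for Tlr7 (0.433).

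**Figure D4:**
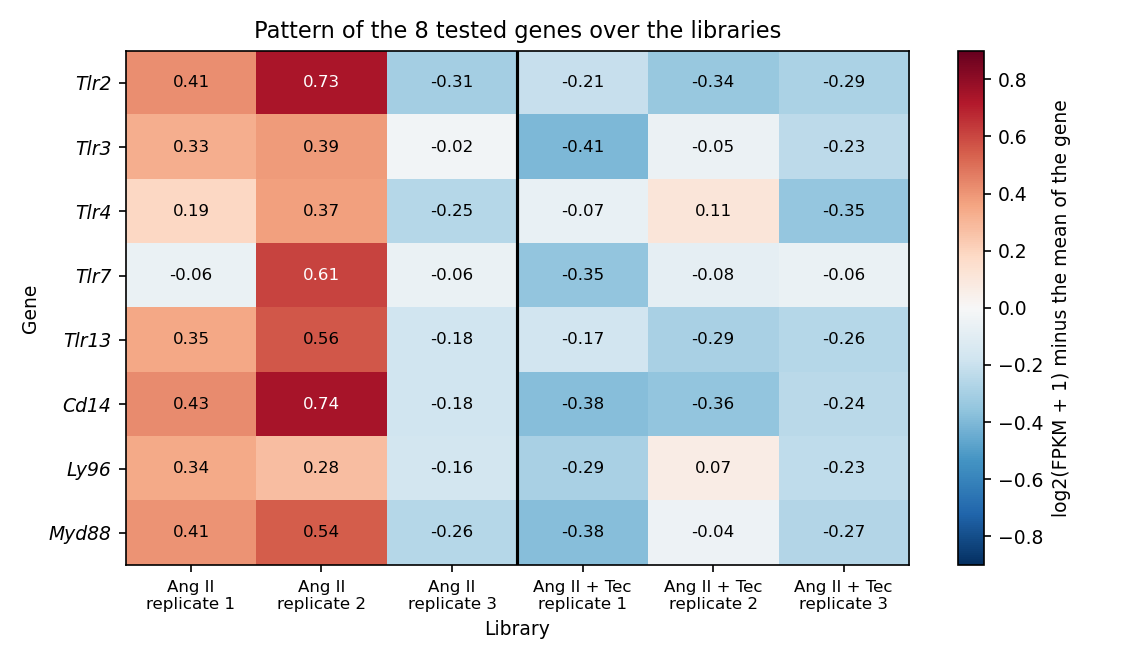
Log2(FPKM + 1) minus the mean of the gene for the 8 tested genes (rows) in the 6 libraries (columns), with the value printed in each cell. Ang II replicate 2 is above the mean of every gene, by 0.28 for Ly96 to 0.74 for Cd14, whereas Ang II replicate 3 is below it for every gene.

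Within the Ang II + Tec group the members divided. Replicate 2, the treated library with atrial transcripts, was the highest of its group for Tlr3, Tlr4, Ly96 and Myd88, 4 of the 8 tested members, and for Tlr5. It was the lowest of its group for Tlr2, Tlr13 and Tlr9. Of all tested genes, 69.6% had this library as the highest of its group. With the presence of atrial transcripts (Myl7 above 100 FPKM) as a block, the log2 fold changes of the 8 members ranged from -0.54 for Cd14 to -0.059 for Tlr4, and their median was -0.32. Cd14 and Tlr3 then had unadjusted p-values of 0.0385 and 0.00736, with limma adjusted p-values of 0.215 and 0.164, and 18.6% of all tested genes had an unadjusted p-value under 0.05 in that direction.

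Without Ang II replicate 3 the adjusted p-value was under 0.05 for 6 of the 8 (Tlr2, Tlr3, Tlr13, Cd14, Ly96 and Myd88), all lower, against 26.2% of all tested genes in that direction. The log2 fold changes were -0.91 for Cd14, -0.85 for Tlr2, -0.71 for Myd88, -0.69 for Tlr13, -0.59 for Tlr3 and -0.46 for Ly96, with limma adjusted p-values of 0.00614, 0.00732, 0.0127, 0.00903, 0.0210 and 0.0438. Tlr4 and Tlr7 had adjusted p-values of 0.112 and 0.144 (limma). None of the 8 reached an absolute log2 fold change of 1, so none was called, against 4.26% of all tested genes. Without Ang II replicate 1, Ang II replicate 2 or Ang II + Tec replicate 1, no member had an unadjusted limma p-value under 0.05. In these 3 fits 969, 1173 and 1238 of the 13089 tested genes had one, against 2439 with all 6 libraries.

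Most macrophage and monocyte markers followed the direction of the members. Of 14 markers, 13 were lower with Tec (11 with median-of-ratios scaling), against 80.0% of all tested genes. An unadjusted limma p-value under 0.05 was reached by 11, all lower, against 16.5% of all tested genes in that direction. None of the markers was called. Their summed level was 291 to 563 FPKM in the Ang II group and 199 to 217 FPKM in the Ang II + Tec group, with no overlap. Lyz2 alone gave 135 to 290 and 97.0 to 107 FPKM of these sums. Gene by gene, 9 of the 14 were lower without overlap, against 18.9% of all tested genes, and no marker of the list was at 0. Ly6c2, Cd163 and Mertk differed little, with log2 fold changes of 0.064, -0.071 and -0.12. With median-of-ratios scaling each of them was higher with Tec (0.19, 0.11 and 0.043). Adgre1, which encodes F4/80, measured 5.44, 9.10 and 2.63 FPKM in the Ang II hearts and 2.68, 2.07 and 2.48 FPKM in the treated hearts. The ratio of Cd14 to Csf1r, the receptor for macrophage colony-stimulating factor, was 0.539, 0.560 and 0.460 in the Ang II hearts and 0.428, 0.421 and 0.457 in the treated hearts. The ratio of Cd14 to Adgre1 was 0.996, 0.768 and 1.22 against 0.993, 1.32 and 1.23. The lower Cd14 ratio in each treated heart was thus seen with Csf1r, by a margin of only 0.460 against 0.457, but not with Adgre1. The ratio of Tlr4 to Csf1r was 0.251, 0.240 and 0.230 against 0.315, 0.363 and 0.217. It overlapped between the groups, as did the ratios of Tlr2, Myd88 and Tlr13 to Csf1r. These ratios were also chosen after the values had been seen. In whole hearts, fewer cells of a type and less RNA per cell cannot be told apart, and the part of macrophage transcripts in the differences of the members was not tested.

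Markers of other cells were summed in the same way. The 6 fibroblast genes, all lower with Tec and 0 called, ranged from 125 to 709 FPKM (Ang II) and from 107 to 178 FPKM (Ang II + Tec), and the 6 endothelial genes, 5 of them lower (2 with median-of-ratios scaling) and 0 called, from 80.4 to 87.4 and from 72.6 to 80.8 FPKM. The 4 erythroid genes summed to 247 to 1015 and 147 to 525 FPKM, the 3 adipocyte genes to 0.860 to 33.3 and 0.230 to 77.5 FPKM, and the 3 atrial genes to 0.610 to 797 and 0.290 to 1544 FPKM, with 0 called. The 6 neutrophil genes summed to 0.330 to 3.22 and 0.360 to 3.11 FPKM, with Ly6g listed at 0 in all 6 libraries. The 6 dendritic cell genes summed to 2.52 to 3.59 and 2.11 to 2.35 FPKM, the 4 B cell genes to 0.480 to 0.540 and 0.310 to 0.720 FPKM, and the 5 T cell genes to 0.170 to 0.370 and 0.140 to 0.250 FPKM. Of the neutrophil genes 1 was tested, of the dendritic cell genes 2, and of the B and T cell genes 0, and none was called.

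The rest of the pathway was followed with a list of 69 further genes, of which 45 were tested. Of the 45, 38 had a lower mean with Tec, against 80.0% of all tested genes. An unadjusted limma p-value under 0.05 was reached by 6, all lower, against 16.5% of all tested genes in that direction. Of the 45, 0 were called, against 0.160% of all tested genes. The median log2 fold change of the 45 was -0.15, against -0.17 for all tested genes. With median-of-ratios scaling 21 of 45 were lower, with a median of 0.031. The medians of the members were -0.46 and, with that scaling, -0.29.

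**Figure D5:**
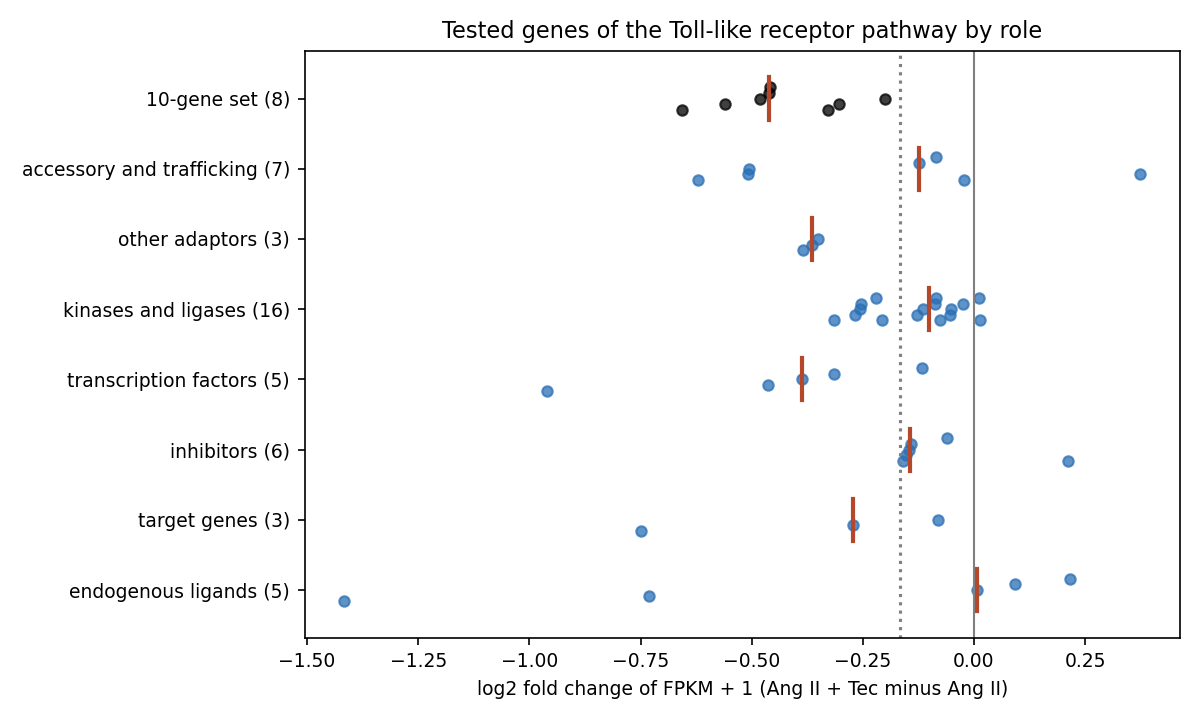
Log2 fold change of FPKM + 1 (horizontal axis, Ang II + Tec minus Ang II) of the tested genes by role, with the number of genes in parentheses, each point a gene and each red bar the median of a role. The dotted line is the median of all tested genes (-0.17). The kinases and ligases lie between -0.31 and 0.014, a narrower range than the ligands, which reach -1.42.

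The 5 remaining receptors (Tlr1, Tlr6, Tlr8, Tlr11 and Tlr12) were all below the limit for testing, with summed levels of 1.38, 2.10 and 0.620 FPKM in the Ang II hearts and 0.920, 0.570 and 0.650 FPKM in the treated hearts. Of the accessory and trafficking genes, 6 of 7 were lower, and 3 of 7 with median-of-ratios scaling. Ly86, which encodes the MD-1 partner of CD180, had the lowest p-value, with a log2 fold change of -0.51 (limma adjusted p-value 0.234). Unc93b1, the chaperone that carries the endosomal receptors out of the endoplasmic reticulum, measured 7.89, 10.7 and 4.65 FPKM in the Ang II hearts and 4.74, 4.62 and 4.00 FPKM in the treated hearts (-0.62, limma adjusted p-value 0.257). The groups overlapped narrowly. Cd36, a scavenger receptor and fatty acid transporter, was the single gene of this role with a higher mean, at 196, 188 and 271 FPKM against 267, 290 and 280 FPKM (0.37, limma adjusted p-value 0.271).

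Of the other adaptors, the 3 tested were lower, with log2 fold changes from -0.38 to -0.35, and Tirap, the bridging adaptor of MYD88, had the lowest p-value (-0.36, limma adjusted p-value 0.305). Of the kinases and ligases downstream, 14 of 16 were lower, but 6 of 16 with median-of-ratios scaling, and none had an unadjusted p-value under 0.05. Tab1, a partner of the kinase TAK1, had the lowest p-value (-0.25, limma adjusted p-value 0.282), and Irak1 was at 12.3, 12.1 and 11.5 FPKM against 11.1, 13.5 and 11.8 FPKM (0.014, limma adjusted p-value 0.948). Irak1 was thus level over all 6 hearts in FPKM without rescaling, while Myd88, which recruits it, varied with the library. With median-of-ratios scaling the log2 fold change was 0.23 for Irak1 and -0.27 for Myd88.

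All 5 transcription factors of the list had a lower mean (4 of 5 with median-of-ratios scaling), against 80.0% of all tested genes. Of these 5, 3 had an unadjusted limma p-value under 0.05, against 16.5% of all tested genes in that direction. Irf7, which drives interferon genes downstream of TLR7 and TLR9, measured 9.59, 8.41 and 4.96 FPKM in the Ang II hearts and 3.11, 2.92 and 4.01 FPKM in the treated hearts. The groups did not overlap, and the log2 fold change was -0.96 (standard error 0.23, limma adjusted p-value 0.197), short of a call. Irf5 and Irf3 had log2 fold changes of -0.46 and -0.39 (limma adjusted p-values 0.246 and 0.266). Of the 6 tested inhibitors, 5 were lower, but 1 of 6 with median-of-ratios scaling. Tollip, which restrains the IRAK kinases, differed by -0.16 on the log2 scale (limma adjusted p-value 0.406), and by 0.054 with that scaling. Nfkbia, which encodes IκBα, differed by 0.21 (limma adjusted p-value 0.453).

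Of 14 target genes, 3 were tested and all had a lower mean (2 of 3 with median-of-ratios scaling). Ccl2, the chemokine that draws monocytes, measured 2.78, 3.19 and 0.92 FPKM in the Ang II hearts and 1.27, 0.63 and 0.73 FPKM in the treated hearts (-0.75, limma adjusted p-value 0.256). The same 2 Ang II hearts were high as for the receptors. Of the endogenous ligands, 2 of 5 were lower. Bgn, which encodes the matrix proteoglycan biglycan, a ligand of TLR2 and TLR4, was at 104, 122 and 19.7 FPKM against 20.5, 36.9 and 16.2 FPKM (-1.42, limma adjusted p-value 0.293). Hspd1 was at 82.6, 75.5 and 90.3 FPKM against 86.7, 89.5 and 88.1 FPKM (0.092, limma adjusted p-value 0.623).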

How the data were processed

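RNA of 6 mouse hearts (3 Ang II, 3 Ang II + Tec) was analysed from the deposited table of FPKM. The authors ran Cutadapt and FastQC on the reads, and their deposited values are FPKM per gene with 2 decimals. The submitters' processing notes name Bowtie 0.12.2, HISAT2 2.0, StringTie 1.3.0 and the build mm8, without their roles. The coordinates of 9 of the 10 genes are those of GENCODE M21 on GRCm38, and the table's Myd88 ends earlier. No read depth or counts were used.

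Groups and replicate numbers came from the sample titles. Values of log2(FPKM + 1) of genes with at least 0.5 FPKM in at least 3 of 6 libraries were fitted with limma 3.58.1 in R 4.3.3 (eBayes with trend, no covariate), with Benjamini-Hochberg adjustment over all tested genes. With 3 hearts against 3, an exact permutation test of one gene cannot go below p = 0.1. The fit was tested on simulated data. The members, gene lists and alternatives were chosen with earlier results of these data known. The named genes are the members, the pathway genes with the lowest p-value in each role and direction, and others with an unadjusted p-value under 0.05. Alternatives changed the pseudocount, filter, scaling, block, variance estimate, library weights and libraries. Tables and plots used Python 3.11.15, pandas 2.3.3 and matplotlib 3.10.9.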

Additional observations from a re-analysis of the deposited data

How the results depend on the processing

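With 3 hearts a group and no depth, small differences between groups cannot be seen. Each limma p-value sets the difference between the groups against the spread within them, an estimate that draws on all tested genes. Over 16 alternatives no difference of a member changed its sign and none of the members was called, so that 8 of 8 tested members stayed lower (7 of 7 with a filter of 1 FPKM, 9 of 10 with no filter). The median log2 fold change of the tested members lay between -0.64 (Ang II replicate 3 left out) and -0.31 (Ang II replicate 2 left out) when 1 library was removed, and was -0.63 with a pseudocount of 0.1, -0.27 after quantile normalization and -0.60 with library weights.

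The number of called genes over the whole table was less stable. It was 21, and became 3 with no filter on low FPKM (27760 genes tested), 13 with atrial transcripts as a block (an alternative chosen after seeing the data), 522 with library weights, and 2 (without Ang II + Tec replicate 2) to 557 (without Ang II replicate 3) when 1 library was left out. The estimation of the weights stopped before it converged. The weights ran from 0.118 (Ang II replicate 1) to 9.96 (Ang II + Tec replicate 3). With them 5 of the 8 members passed a limma adjusted p-value of 0.05, with 0.0286 for Cd14 as the lowest. The share of all tested genes under that adjusted limit was not counted in this fit. The 5 therefore cannot be read as particular to the members. An unadjusted limma p-value under 0.05 was reached with the weights by all 8 members, and by 6074 of the 13089 tested genes. Of the pathway genes, 0 were called, 2 with library weights (Bgn and Vcan), and 0 to 4 when 1 library was left out, with the 4 being Bgn, Vcan, Ccl2 and Irf7 without Ang II replicate 3. The cause of these changes was not tested.

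In their deviations from the group means, same-numbered libraries were alike for replicates 2 and 3 but not for replicate 1. The correlation across genes of same-numbered libraries was -0.039, 0.43 and 0.38. The values of replicates 2 and 3 were above those of every other pair across the groups. Ang II replicate 1 was closer to Ang II + Tec replicate 2 (0.21) than to Ang II + Tec replicate 1. With the replicate block, 22 genes and 0 members were called, and 5 members had an unadjusted limma p-value under 0.05, against 3 without it. Over all 13089 tested genes the count at that limit also rose, from 2439 without the block to 3308 with it.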

Other observations

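Several genes of the pathway list were below the limit for testing, and the ones named here were chosen after their values had been seen. The target genes Il6 and Ptgs2, the inhibitor Socs1 and the ligand Tnc had lower means with Tec, and other untested genes did not. Il6 measured 0.17, 0.60 and 0.05 FPKM in the Ang II hearts and was listed at 0 in the 3 treated hearts. Ptgs2, which encodes cyclooxygenase-2, measured 1.22, 4.09 and 0.08 FPKM in the Ang II hearts and 0.17, 0.37 and 0.22 FPKM in the treated hearts, so Ang II replicate 3 was the lowest library. Socs1, an inhibitor of cytokine signaling, was at 0.55, 0.87 and 0.23 FPKM against 0.14, 0.11 and 0.16 FPKM, with no overlap between the groups. Of all tested genes, 18.9% were lower without overlap. The matrix ligand Tnc measured 4.63, 6.29 and 0.23 FPKM in the Ang II hearts and 0.05, 0.15 and 0.10 FPKM in the treated hearts. Tnfaip3, of the inhibitors, had equal means, with 0.45, 0.44 and 0.30 FPKM against 0.39, 0.51 and 0.29 FPKM. The ligand S100a8 had a higher treated mean, with 0.21, 0.62 and 0.00 FPKM against 0.73, 0.21 and 0.06 FPKM.

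The 5 tested genes nearest to the mean pattern of the 8 tested members over the 6 libraries were Rab6a, Rai14, Arpc2, Rhog and Fbxo4, at Euclidean distances from 0.0375 to 0.0683. They have roles in vesicle traffic (Rab6a) and the actin cytoskeleton (Arpc2, Rhog), among others. Arpc2 measured 69.4, 82.3 and 49.3 FPKM in the Ang II hearts and 45.1, 49.7 and 46.4 FPKM in the treated hearts. The order of the libraries was the same in all 5 genes, with Ang II replicate 2 highest, then Ang II replicate 1, Ang II + Tec replicate 2, Ang II replicate 3, Ang II + Tec replicate 3 and Ang II + Tec replicate 1. The distance describes 6 libraries and says nothing of shared control.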
